A study of Anas platyrhynchos with 6 samples.

Results

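The miRNAs miR-7 and miR-375 were followed in small RNA libraries from the duodenum of Nonghu No. 2 ducks. A name was taken when, without its species prefix, it read miR-7 or miR-375, with or without a letter, copy number or arm, and 31 of the 1568 miRNA names in the files did so. Of these, 19 were names of miR-7 and 12 were names of miR-375. They carried the miRBase prefixes of 24 species, and 0 carried the duck prefix. The libraries came from 3 samples of the cage rearing (CR) group, moved from the floor to cages, and 3 samples of the traditional breeding (TB) group, kept on the ground. All ducks were selected at 90 days of age and were kept on the floor before the start. They went through a trial of 10 days under the same feeding management, with 4 replicates of 8 ducks in each group. The paper reports lower food intake and lower body weight gain in the CR ducks than in the TB ducks. The labels do not say which ducks the 6 samples came from, so the p-values below measure the spread between these samples, which may be technical.

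Both miRNAs are classic markers of hormone-secreting cells in mammals. miR-375 is abundant in pancreatic islet cells, where it restrains insulin secretion, and is also found in the gut epithelium. miR-7 is enriched in islets, in neurons and in enteroendocrine cells, the scattered cells of the gut lining that release hormones into the blood. A miRNA precursor is cut into a 5p and a 3p strand, of which one usually enters the silencing complex and the other is degraded. For miR-7 the 5p strand is the usual product, and for miR-375 the 3p strand.

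The deposited values were RPM, the reads of a name scaled so that all names of a library sum to 1000000. Every value was a whole multiple of the value of 1 read (within 0.01 reads), which gave back the reads. The libraries held 1500905 to 11395209 reads in CR and 5708735 to 9339494 in TB, summed over all names. A single read was worth 0.0878 to 0.666 RPM in CR and 0.107 to 0.175 RPM in TB. Intervals and limits from these reads cover counting error only. CR replicate 2, the shallowest library, and TB replicate 1 stood apart from the rest. Across the 662 tested names their log2(RPM + 1) values had a Pearson correlation of 0.968 with each other, of 0.737 to 0.818 with the other 4 libraries, and the other 4 had 0.982 to 0.992 among themselves. Names are not independent replicates. These samples were labelled as intestinal epithelial cells. All 8 miRNAs of an epithelial list (among them miR-192, miR-194, miR-215 and the miR-200 family) were detected, with sums of 126932, 38722 and 137934 RPM in CR replicates 1 to 3 and of 49794, 142005 and 186730 RPM in TB replicates 1 to 3. A smooth muscle list (miR-143, miR-145, miR-1 and miR-133) summed to 92253 to 201264 RPM in CR and 120016 to 165702 RPM in TB. Nearly all of it was miR-143 (ola-miR-143), at 90227 to 197456 RPM in CR and 117332 to 161289 RPM in TB. So miR-143, a miRNA known from smooth muscle, was abundant in samples with that label. The paper's methods, however, describe washed and frozen pieces of duodenum as the material for sequencing.

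The leading miR-7 name, gga-miR-7, carries the chicken prefix and gives no arm. It had 2428, 289 and 1212 RPM in CR replicates 1 to 3, against 862, 1669 and 1521 RPM in TB replicates 1 to 3. The lowest value was that of CR replicate 2 and the next that of TB replicate 1, while the highest was also a CR library, so the groups overlapped. The mean was 1309 ± 1073 RPM in CR and 1351 ± 429 RPM in TB (SD, n = 3 each), a difference smaller than the spread between replicates (p = 1.0 in an exact permutation test, two-sided, whose smallest p with 3 libraries a group is 0.1). Counting names with identical reads once, gga-miR-7 ranked 38, 148 and 41 by RPM in CR replicates 1 to 3 and 93, 40 and 44 in TB replicates 1 to 3. It made up between 0.0289% and 0.243% of the reads summed over all names of a library, a sum in which a read may count under several names.

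**Figure D1:**
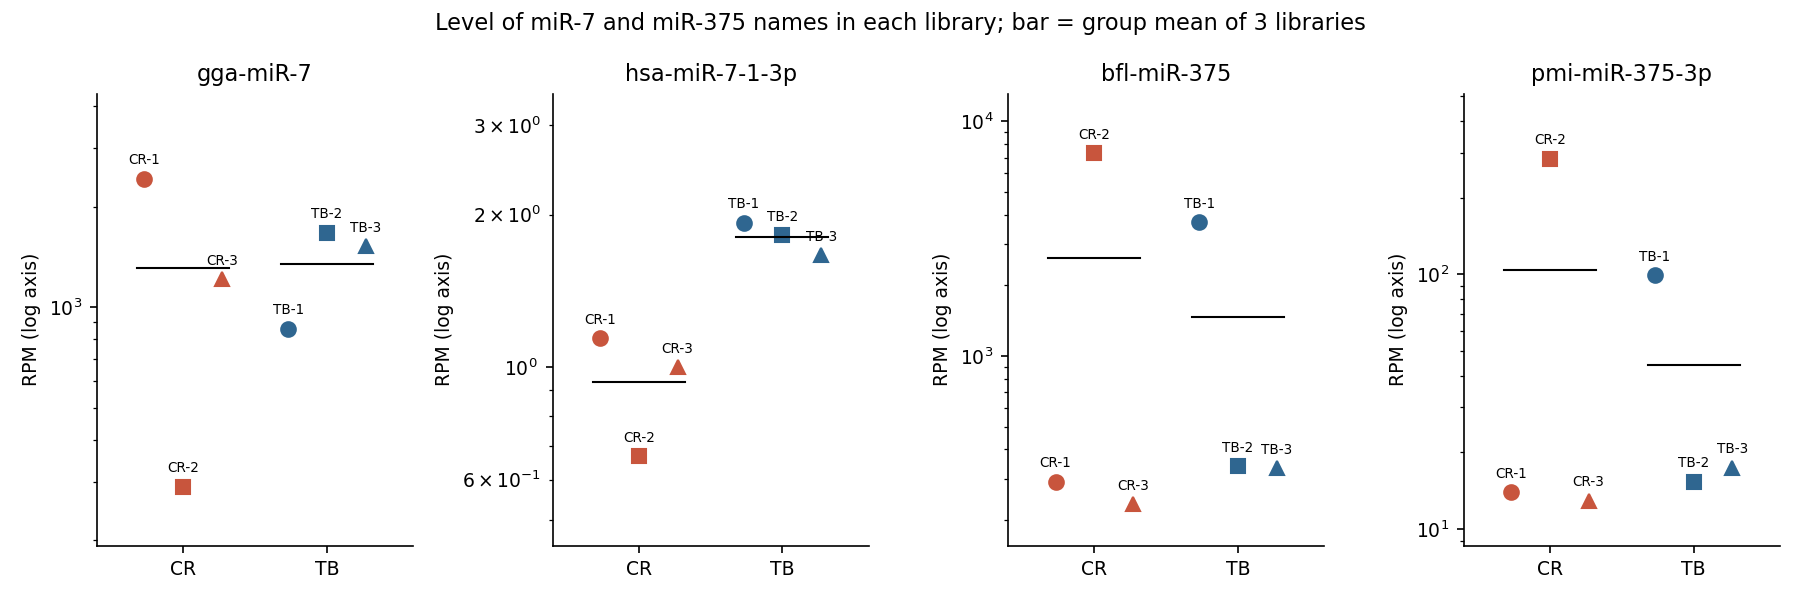
Level of 4 names in RPM (log axes) in each of the 3 CR and 3 TB libraries, with a bar at the group mean. For gga-miR-7 the points of CR-2 (289 RPM) and TB-1 (862 RPM) are the lowest, for both miR-375 names they are the highest, and for hsa-miR-7-1-3p all 3 CR points lie below all 3 TB points.

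The most abundant miR-375 name was bfl-miR-375. Its values were 291, 7310 and 233 RPM in CR replicates 1 to 3, against 3716, 338 and 332 RPM in TB replicates 1 to 3. CR replicate 2 and TB replicate 1 held the highest values, and the lower of both was 10.98-fold above the highest of the other 4 libraries. Groups therefore overlapped, at 2611 ± 4069 RPM in CR and 1462 ± 1952 RPM in TB (SD, n = 3 each; two-sided exact permutation test, p = 1.0). By RPM it ranked 23 in CR replicate 2 and 39 in TB replicate 1, and between 84 and 98 elsewhere. The name that states the 3p arm with most reads besides pma-miR-375b-3p was pmi-miR-375-3p, at 14.0, 284 and 12.9 RPM in CR replicates 1 to 3 and at 99.1, 15.3 and 17.4 RPM in TB replicates 1 to 3. CR replicate 2 and TB replicate 1 were again the highest, at a lower level, with 104 ± 157 RPM in CR and 44.0 ± 47.8 RPM in TB (SD, n = 3 each; two-sided exact permutation test, p = 1.0).

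miR-7 and miR-375 had opposite extremes in the same libraries. The 8 tested names of miR-375 had 7 distinct profiles, some with nearly equal reads, so they are not 8 separate measurements. In all 8 names both CR replicate 2 and TB replicate 1 lay above each of the other 4 libraries, and in all 8 CR replicate 2 lay above TB replicate 1. Most names did the first, since both libraries lay above the other 4 in 57.3% of all tested names, and in 46.4% CR replicate 2 was also above TB replicate 1. For gga-miR-7 both lay below each of the others, as in 21.8% of all tested names, and CR replicate 2 below TB replicate 1. The separation of these libraries is thus common in the table and not particular to miR-375 or miR-7. Scaling by TMM, which sets libraries by the bulk of their names and not by their sum, gave factors of 2.96 for CR replicate 2 and 1.70 for TB replicate 1, and of 0.531 to 0.773 for the other 4. After it, bfl-miR-375 was still at 2468 in CR replicate 2 and 2190 in TB replicate 1, against 376 to 521 elsewhere, and gga-miR-7 was at 97.6 and 508, against 2195 to 3142 elsewhere, on the RPM scale divided by the factor. For bfl-miR-375 and gga-miR-7 these libraries thus kept their places under both scalings, and the size of the gap changed. In these bulk samples the number of cells that hold a miRNA and its amount in each cell cannot be told apart.

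Some other lists also set CR replicate 2 and TB replicate 1 apart from the rest. The acinar list of the pancreas (miR-216a, miR-216b and miR-217) summed to 4.83, 26.0 and 2.0 RPM in CR replicates 1 to 3, against 53.6, 3.53 and 1.11 RPM in TB replicates 1 to 3. This sum was highest in CR replicate 2 and TB replicate 1, as miR-375 was, but with TB replicate 1 above CR replicate 2. The names of miR-217 and miR-216a had that order. For miR-216b CR replicate 2 was above TB replicate 1, at 10.7 and 7.88 RPM. All 3 miRNAs of the acinar list were detected, with the miR-216a name gga-miR-216a at 0 in TB replicates 2 and 3. Each miRNA of these lists was read by its name with the highest mean RPM. miR-122, the hepatocyte miRNA, had 3.16, 328 and 5.10 RPM in CR and 7.36, 3.0 and 1.55 RPM in TB. The epithelial sums given above were lowest in CR replicate 2 and TB replicate 1, where miR-192, miR-194 and miR-215 were lowest. In every library the sum was mostly miR-215 and miR-194. miR-200b, miR-200c and miR-429 of the same list were highest in CR replicate 2 and TB replicate 1, as with miR-200c (dre-miR-200c-3p) at 313, 2217 and 132 RPM in CR and 1914, 245 and 189 RPM in TB. miR-200a and miR-141 were neither highest nor lowest in both. The sum of a leukocyte list (miR-142, miR-223, miR-150 and miR-155) was lowest in both, at 137 and 56.6 RPM, against 244 to 331 RPM elsewhere. Most of this sum was miR-142. By contrast, miR-155 (ssc-miR-155-5p) was highest in both, at 49.3 RPM in CR replicate 2 and 24.7 RPM in TB replicate 1, against 6.90 to 9.98 RPM elsewhere. For miR-150 no name was found, and the miR-223 name was above 0 only in CR replicate 3. miR-126, known from endothelium, was lowest in CR replicate 2 and TB replicate 1. The sum of an erythroid list (miR-451 and miR-144), which was mostly miR-451, did not follow these libraries. Its miR-144 name, cpi-miR-144-5p, was lowest in them. It had 0.666 RPM in CR replicate 2, the value of 1 read, and 0 RPM in TB replicate 1, against 1.82 to 5.10 RPM elsewhere. The neuron list (miR-9, miR-124 and miR-153) ran from 66.7 to 123.1 RPM in CR and from 45.5 to 86.8 RPM in TB, with CR replicate 2 at 87.9 RPM. Its miR-124 was read by mmu-miR-124-5p, out of 14 names of miR-124. That name was at 0 in the 4 libraries other than CR replicate 2 and TB replicate 1. The part of these other tissues, and of the depth of CR replicate 2, in the values of miR-7 and miR-375 was not tested.

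Within a library the ratio of both miRNAs does not depend on the scaling. Reads of bfl-miR-375 per read of gga-miR-7 (0.5 reads added to each) were 0.120, 25.3 and 0.192 in CR replicates 1 to 3 and 4.31, 0.203 and 0.218 in TB replicates 1 to 3. More reads were thus counted for miR-375 than for miR-7 in CR replicate 2 and TB replicate 1, and more for miR-7 in the other 4 libraries. With pmi-miR-375-3p the ratio was 0.00577, 0.984 and 0.0107 in CR and 0.115, 0.00921 and 0.0115 in TB. Its log2 value averaged -4.67 ± 4.05 in CR and -5.44 ± 2.02 in TB (SD, n = 3 each), a difference of 0.77 with a p of 0.9 (two-sided exact permutation test). Without CR replicate 2 and TB replicate 1 this difference was -0.39. It was -1.55 without CR replicate 2 alone and 1.93 without TB replicate 1 alone, so its direction rested on CR replicate 2.

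**Figure D2:**
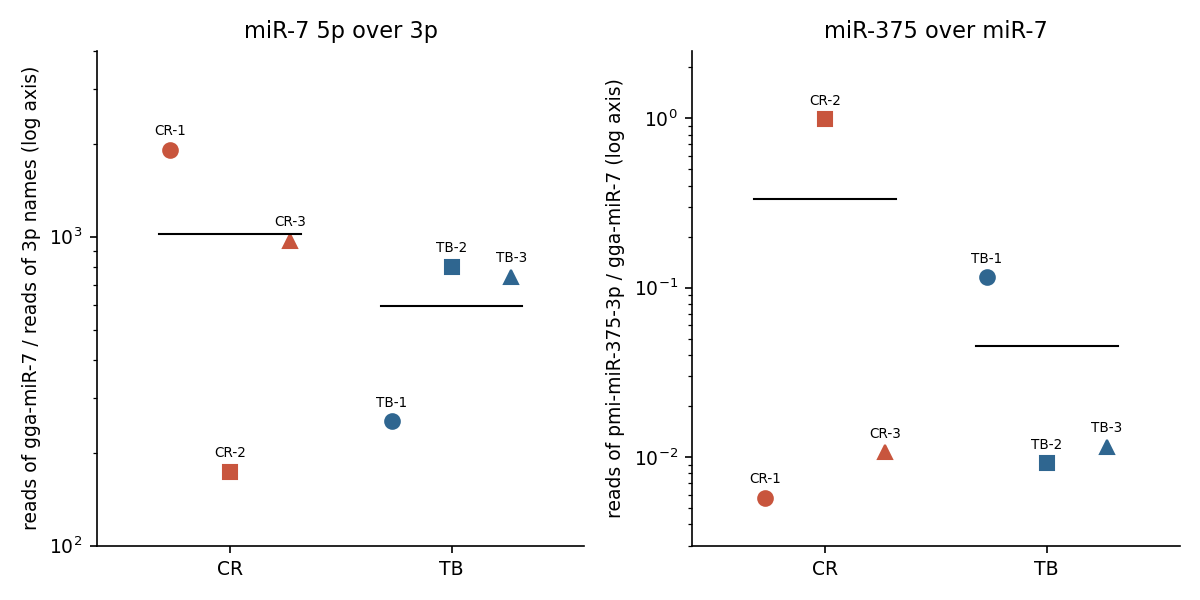
Left, reads of gga-miR-7 per read of the 3p names of miR-7, and right, reads of pmi-miR-375-3p per read of gga-miR-7, in each library (log axes), with a bar at the group mean. CR-2 and TB-1 have the lowest 5p to 3p ratios (174 and 252) and the highest miR-375 to miR-7 ratios (0.984 and 0.115).

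Reads under the 3p names of miR-7 were rare. As 0 of these names carried the duck prefix and no sequence was used, 3p reads that match none of them would be missed. There were 7 names of this arm with 5 distinct sets of reads, and hsa-miR-7-1-3p, chi-miR-7-3p and rno-miR-7a-1-3p matched each other read for read in the 6 libraries, so they are given once. Under hsa-miR-7-1-3p, 13, 1 and 10 reads were counted in CR replicates 1 to 3 and 11, 17 and 15 in TB replicates 1 to 3. In RPM these were 1.14, 0.666 and 1.0 in CR, against 1.93, 1.82 and 1.66 in TB. All 3 CR values were under all 3 TB values, at 0.936 ± 0.24 RPM in CR and 1.8 ± 0.13 RPM in TB (SD, n = 3 each; p = 0.1 in the exact permutation test, the smallest it can give). After TMM scaling the groups overlapped, at 0.225 to 1.88 in CR and 1.14 to 2.61 in TB. Single libraries also overlapped within their 95% Wilson intervals, as with 0.118 to 3.77 RPM in CR replicate 2, which rests on 1 read, and 1.01 to 2.75 RPM in TB replicate 3. The study also chose miR-7-1-3p for PCR after sequencing these samples, so that the separation is not independent evidence. Of the other 3p names, cli-miR-7a-2-3p had 7 reads in all (4 of them in TB replicate 1), tgu-miR-7-1-3p had 5, tgu-miR-7-4-3p had 4 and ssa-miR-7a-3-3p had 1. Unrelated names had the same counts as 2 of these, gga-miR-2184a-3p as tgu-miR-7-1-3p and, among others, hsa-miR-132-5p as ssa-miR-7a-3-3p. Whether these were shared reads is not known.

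Reads of gga-miR-7 exceeded those of the 3p names in every library. Over the distinct 3p names together, 14, 2 and 12 reads were counted in CR replicates 1 to 3 and 19, 19 and 18 in TB replicates 1 to 3, against 434 to 27663 reads of gga-miR-7 in CR and 4923 to 15583 in TB. The 3p share of both arms was 0.0506%, 0.459% and 0.0990% in CR and 0.384%, 0.122% and 0.131% in TB. It was highest in CR replicate 2 (95% Wilson interval 0.126% to 1.66%) and TB replicate 1 (0.246% to 0.600%), where gga-miR-7 was lowest. The 5p to 3p ratio was 1908, 174 and 969 in CR and 252, 799 and 741 in TB (0.5 reads added to both). On the log2 scale it averaged 9.42 ± 1.78 in CR and 9.05 ± 0.93 in TB (SD, n = 3 each), a difference of 0.37 that was within the spread between replicates (two-sided exact permutation test, p = 0.8). It was 0.82 without CR replicate 2 and TB replicate 1. Within these 4 libraries both CR ratios were above both TB ratios, on 12 to 19 reads of the 3p arm in each.

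Several names counted nearly the same reads of miR-7. Relative to gga-miR-7, ggo-miR-7 had at least 99.9% of the reads in every library and dme-miR-7-5p had 99.6% to 99.8%, so that these names can be read as 1 measurement of the 5p product. Outside the members, the name whose pattern was most like gga-miR-7 was hsa-miR-3529-3p, with a Pearson correlation of 0.999998 over the 6 libraries. It had 96.1% to 96.5% of the reads of gga-miR-7 in each library, at 2341, 278 and 1169 RPM in CR and 831, 1603 and 1466 RPM in TB. In human, miR-3529 is annotated on the strand opposite a miR-7 gene. The sources used here do not state whether strand was used in counting, and reads of both names cannot be told apart in these tables. Next came oan-miR-20a-5p and hsa-miR-20a-5p (0.97 each), which nearly share their reads, then cfa-miR-19b and hsa-miR-30a-5p (0.94 each), out of 327 distinct profiles with a mean of at least 10 RPM. All 5 were lowest in CR replicate 2 and TB replicate 1, and the correlations are descriptions over 6 libraries that fall into 2 clusters.

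Among the names of miR-375, 7 distinct profiles had enough reads to be tested and kept 1 order in all 6 libraries apart from a tie of pma-miR-375b-3p and ipu-miR-375 in TB replicate 2, from bfl-miR-375 over dre-miR-375, pma-miR-375b-3p, ipu-miR-375, pmi-miR-375-3p (with the same reads as spu-miR-375) and hsa-miR-375-3p to sko-miR-375. Their proportions were not fixed. Relative to bfl-miR-375, pma-miR-375b-3p had 45.0%, 64.4% and 43.7% of the reads in CR replicates 1 to 3, against 52.4%, 44.9% and 42.6% in TB replicates 1 to 3, so that CR replicate 2 and TB replicate 1 were the highest. The reads of hsa-miR-375-3p relative to pmi-miR-375-3p behaved alike, at 52.2%, 84.1% and 52.7% in CR and 75.1%, 49.0% and 45.2% in TB. For pmi-miR-375-3p relative to bfl-miR-375 the share was 4.80%, 3.89% and 5.54% in CR and 2.67%, 4.52% and 5.25% in TB, with CR replicate 2 and TB replicate 1 the lowest. These names differ in the species whose miRNA they match, and no sequence of them was used here, so which variant of miR-375 each one counted is not known. None of these 3 proportions differed between the groups beyond the spread (two-sided exact permutation tests, p = 0.6, 0.5 and 0.6). The proportion of hsa-miR-375-3p to bfl-miR-375 did not overlap, at 2.90 ± 0.38% in CR and 2.20 ± 0.19% in TB (SD, n = 3 each, p = 0.1 by the same exact test). Of the 14 such proportions among members this and that of ame-miR-375-3p had the lowest p, and after Benjamini-Hochberg adjustment over the 14 both exact tests had an adjusted p of 0.7.

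**Figure D3:**
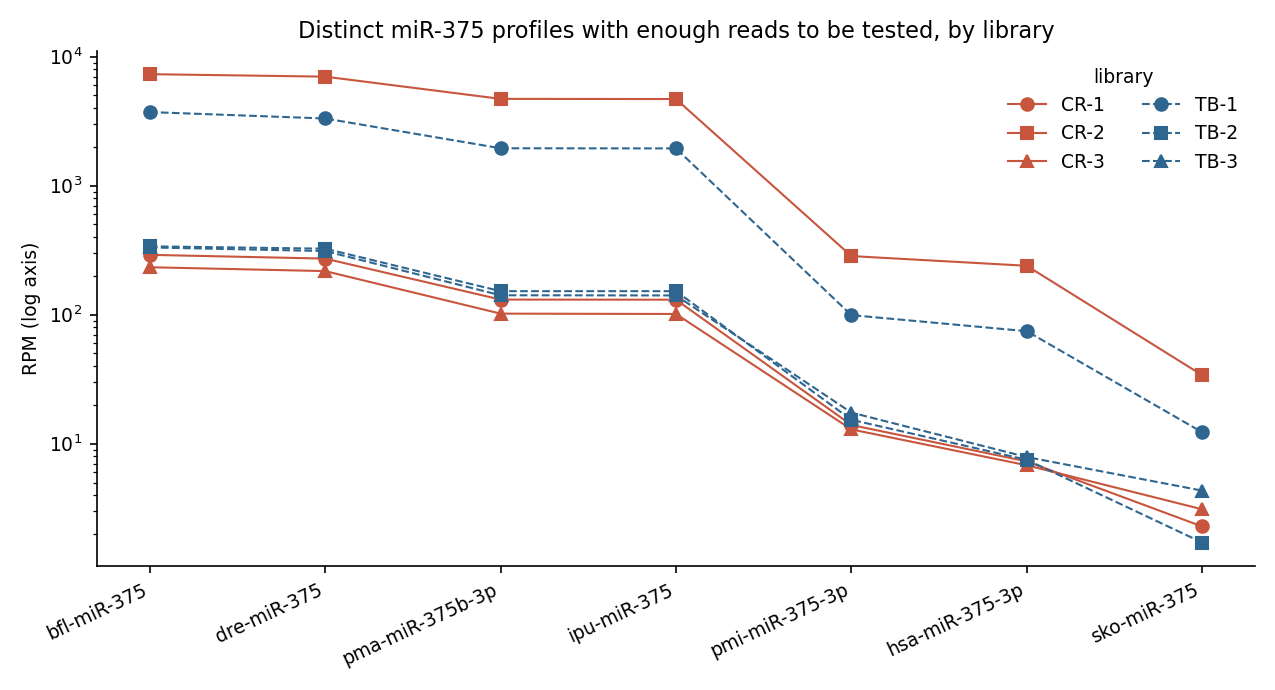
RPM (log axis) of the 7 distinct miR-375 profiles with enough reads to be tested, from the most to the least abundant, with 1 line for each library (CR solid, TB dashed). The lines of CR-2 and TB-1 run above the other 4 for every name, and the drop from ipu-miR-375 to pmi-miR-375-3p is seen in all 6.

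The only name that states the 5p arm of miR-375, cli-miR-375-5p, had 1, 1 and 0 reads in CR replicates 1 to 3 and 5, 0 and 2 in TB replicates 1 to 3. Under ame-miR-375-3p, a honey bee name, 12, 2 and 1 reads were counted in CR and 0 in each TB library, which puts every CR library above every TB library. The values were 1.05, 1.33 and 0.10 RPM in CR. A count of 0 allows up to 0.526, 0.321 and 0.333 RPM in TB replicates 1 to 3, so the level of CR replicate 3 could not have been told from 0 in TB at this depth. This name did not follow the others. It was at 0 in TB replicate 1, where bfl-miR-375 had 21215 reads, and had 12 reads in CR replicate 1, where bfl-miR-375 had 3313. Other rare names of miR-7 also had most reads in CR replicate 1, the deepest library, with 14 reads of cte-miR-7, 13 of gga-miR-7b and 12 of asu-miR-7-5p there. In CR replicate 2, with 434 reads of gga-miR-7, 3 reads were counted for cte-miR-7 and 3 for gga-miR-7b. Fewer reads still were counted for gmo-miR-7b-5p (7 in all), mle-miR-7-5p (5), sme-miR-7d-5p (4), cin-miR-375-3p (5, the same reads as names of miR-202-5p) and cte-miR-375 (3). The names dre-miR-7b, mmu-miR-7b-5p and rno-miR-7b had 1 read each, in CR replicate 3, a count that unrelated names such as hsa-miR-486-5p also had, so whether it was a shared read is not known. All 17 members that did not reach 10 reads in 3 libraries had 27 reads or fewer in all, and 0 of the 31 members were at 0 in every library.

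In the comparison of the groups over all names, limma on log2(RPM + 1) was fitted to 662 names that reached 10 reads in 3 or more libraries, and 14 members with 11 distinct profiles entered it. The adjusted p (Benjamini-Hochberg) was under 0.05 in 0% of the tested names and in 0 of the 14 members. The unadjusted p of limma was under 0.05 in 0% of them too. On the recovered reads, edgeR gave 0 names by adjusted p and 5 names with an unadjusted p under 0.05, and so did DESeq2. The log2 fold change of gga-miR-7, CR over TB, was -0.45 (standard error 0.86, 95% interval -2.54 to 1.63, adjusted p = 0.999 from limma). For bfl-miR-375 it was 0.083 (standard error 1.64, interval -3.89 to 4.06), and for pmi-miR-375-3p it was 0.33 (standard error 1.45, interval -3.18 to 3.83), both at the same adjusted p from limma. That of hsa-miR-7-1-3p was -0.54 (standard error 0.37, interval -1.43 to 0.35, adjusted p = 0.999 from limma), where the pseudocount of 1 RPM understates the change of so low a name. These intervals leave room for large differences in either direction, so the data do not show that the groups were alike. The adjusted p of these names lay between 0.875 and 0.9998 over all settings tried. The 14 tested members had a median log2 fold change of 0.093, against 0.052 for all tested names. The CR values were all under the TB values in 1.66% of the tested names and all over them in 0.604%. Among the 14 tested members it was 3 below, all with the reads of hsa-miR-7-1-3p, and 0 above.

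The sign of these fold changes depended on the libraries and on the method. With all 6 libraries gga-miR-7 was at 0.12 in edgeR and 0.12 in DESeq2, and in limma it was at 0.40 without CR replicate 2. For pmi-miR-375-3p the limma value was -1.11 without CR replicate 2, -0.14 without TB replicate 2 and -0.051 without TB replicate 3, whereas without TB replicate 1 alone the sign of neither changed. Without CR replicate 2 and TB replicate 1 the log2 fold change was 0.11 for gga-miR-7 (standard error 0.44, adjusted p = 0.997 from limma), -0.36 for bfl-miR-375 (standard error 0.42) and -0.27 for pmi-miR-375-3p (standard error 0.34). In these 4 libraries both CR values lay below both TB values in 7 of the 8 tested miR-375 names, against the sign over all 6, while gga-miR-7 overlapped. The same held for 25.4% of all tested names, with both CR values above both TB values in 6.19% of all tested names and in 0 of the 8. These 8 names had 7 distinct profiles, some with nearly equal reads, so they do not count as 8 separate measurements. All tested names had a median log2 fold change of -0.11 in these 4 libraries and 0.052 in all 6. CR replicate 2 over TB replicate 1, a comparison of 2 libraries with no replicate, gave 0.98 for bfl-miR-375 and -1.57 for gga-miR-7 on the log2(RPM + 1) scale, against a median of 0.36 for all tested names. For hsa-miR-7-1-3p both were below 0, at -0.41 in the 4 libraries and -0.81 between CR replicate 2 and TB replicate 1. The latter compares 1 read with 11 reads.

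**Figure D4:**
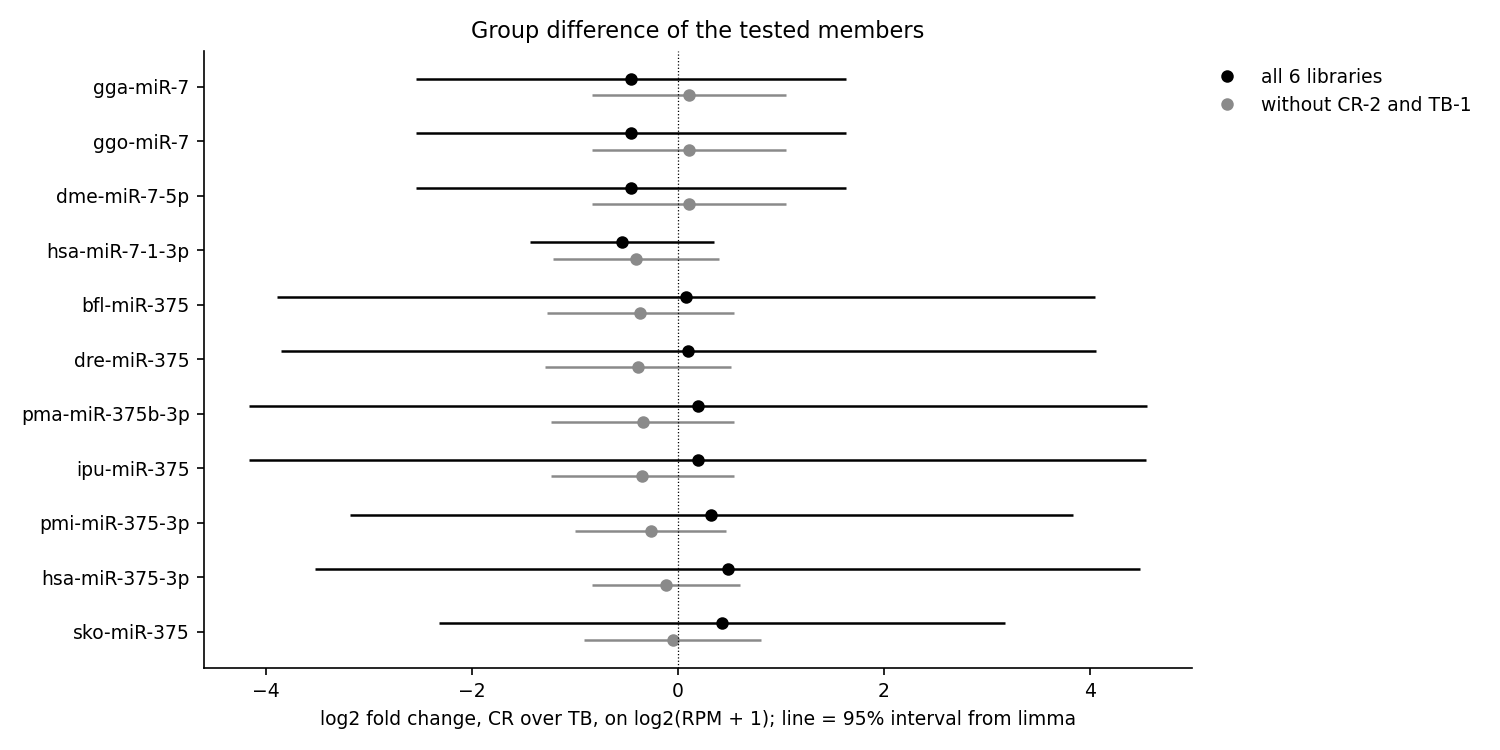
Log2 fold change, CR over TB, of the 11 distinct tested profiles on the log2(RPM + 1) scale, with 95% intervals from limma, in all 6 libraries (black) and without CR-2 and TB-1 (grey). Every interval spans 0, and the point changes side for all profiles except hsa-miR-7-1-3p.

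A list of 12 other miRNAs known from neurons or the pancreas was taken as companions of miR-7 and miR-375, and the best name of 8 of them could be tested. Of these, 5 had a positive and 3 a negative log2 fold change, with a median of 0.32 against 0.052 for all tested names, and 0 had an unadjusted p under 0.05 in limma. miR-132 and miR-212, which share a precursor transcript in mammals and respond to neuronal activity, were highest in the libraries where miR-375 was. CR replicate 2 and TB replicate 1 both lay above the other 4 in 57.3% of all tested names and below them in 21.8%. Such a pattern is thus not particular to the companions. gga-miR-132b-3p had 97.4, 436 and 58.0 RPM in CR replicates 1 to 3, against 202, 75.1 and 63.3 RPM in TB replicates 1 to 3. aca-miR-212-5p had 2.54, 65.3 and 0.700 RPM in CR, against 31.5, 2.14 and 1.22 RPM in TB. The neuronal miR-153 (efu-miR-153) was low in the same libraries, as gga-miR-7 was, at 11.3, 0 and 15.8 RPM in CR, against 0.350, 9.96 and 16.4 RPM in TB. miR-9 (dme-miR-9a-5p) followed neither, at 112, 86.6 and 50.9 RPM in CR, against 44.1, 74.4 and 70.3 RPM in TB. Of the other tested companions, mmu-miR-184-3p had 2.11, 30.0 and 0.40 RPM in CR, against 10.7, 3.53 and 3.88 RPM in TB. cgr-miR-183 had 1.58, 9.99 and 1.0 RPM in CR, against 2.1, 0.214 and 0.777 RPM in TB. From the acinar list, dre-miR-217 had 3.77, 14.7 and 1.2 RPM in CR, against 44.3, 3.43 and 0.998 RPM in TB, and mmu-miR-216b-5p had 0.965, 10.7 and 0.60 RPM in CR, against 7.88, 0.107 and 0.111 RPM in TB. Of the companions, the best names of miR-96, miR-124, miR-182 and miR-216a had too few reads to be tested. The names outside the members with a pattern most like pmi-miR-375-3p were oan-miR-1386, hsa-miR-22-5p, pmi-miR-92c-3p, aca-miR-1306 and pte-miR-125a-5p. Their Pearson correlations were 0.996 to 0.998 over the 6 libraries, which fall into 2 clusters, so these values are descriptions only. Of these, hsa-miR-22-5p had 6.58, 59.3 and 5.10 RPM in CR and 26.1, 6.96 and 7.77 RPM in TB. For hsa-miR-7-1-3p, with only 1 to 17 reads in a library, the most alike names were bta-miR-194b and dme-miR-10-5p (0.88 each), ola-miR-194-5p and dre-miR-194a (0.85 each) and gga-miR-140-5p (0.76).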

How the data were processed

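From total RNA of the duodenum, RNA of 20 to 30 nt was selected on a gel and made into TruSeq small RNA libraries for an Illumina HiSeq. Aligner, genome build and miRNA database version are not given in the sources used here. Each library has its own table from the authors, deposited with values in RPM under a heading of TPM, whereas the paper's methods name FPKM. All values gave whole reads (within 0.01 reads), which were used by edgeR and DESeq2, and 0 columns were left out. The fits ran over 662 names that reached 10 reads in 3 or more libraries, by limma 3.58.1 with a trend on log2(RPM + 1), with edgeR 4.0.16, DESeq2 1.42.0, other filters, scalings and pseudocounts, a replicate block and libraries left out as alternatives. Each adjusted p is by Benjamini-Hochberg. Single values were compared by exact permutation. R 4.3.3, Python 3.11.15, scipy 1.17.1 and matplotlib 3.10.9 were used, and the fits were tested on simulated data. Members, lists and tests were chosen with earlier results of these data known. Named were all members, the most abundant name of each tested companion miRNA and, for gga-miR-7, hsa-miR-7-1-3p and pmi-miR-375-3p, the 5 names most alike in pattern. Mature sequences were not used here.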

Additional observations from a re-analysis of the deposited data

How the results depend on the processing

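Names passing an adjusted p of 0.05 numbered 0 in limma and 5 with a term for CR replicate 2 and TB replicate 1, with 0 members among them (adjusted p from 0.912 to 0.953). Names passing 0.05 before adjustment numbered 0 in limma, 5 in edgeR, 5 in DESeq2, 4 without a filter (among them the member ame-miR-375-3p, at a log2 fold change of 0.80 with an adjusted p of 0.998), 24 without CR replicate 2 and TB replicate 1 and 32 with the term for them. Both numbers were 0 with any 1 library left out. TMM scaling moved the median log2 fold change of all names to -0.11, against 0.052 on RPM.

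The log2 fold change of gga-miR-7, ggo-miR-7 and dme-miR-7-5p was 0.12 for each in edgeR and 0.12 for each in DESeq2, and 0.11 for each without CR replicate 2 and TB replicate 1 together. Without both libraries it was -0.36 for bfl-miR-375, -0.38 for dre-miR-375, -0.34 for pma-miR-375b-3p, -0.35 for ipu-miR-375, -0.27 for pmi-miR-375-3p, -0.11 for hsa-miR-375-3p and -0.051 for sko-miR-375, and on TMM-scaled RPM it was -0.11 for bfl-miR-375 and -0.086 for dre-miR-375. The log2 ratio of miR-375-3p to miR-7 was -0.39 without both. The cause was not tested.

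With 1 library left out, the log2 fold change ran from -1.13 to 0.40 for gga-miR-7, ggo-miR-7 and dme-miR-7-5p, from -1.11 to 1.17 for pmi-miR-375-3p, from -1.52 to 1.24 for bfl-miR-375, from -1.51 to 1.23 for dre-miR-375, from -1.58 to 1.44 for pma-miR-375b-3p, from -1.59 to 1.43 for ipu-miR-375, from -1.15 to 1.52 for hsa-miR-375-3p and from -0.65 to 1.05 for sko-miR-375. It stayed below 0 for hsa-miR-7-1-3p, from -0.62 to -0.44, on 67 reads in all. The log2 ratio of miR-7 5p to 3p ran from -0.37 to 1.36 and that of miR-375-3p to miR-7 from -1.55 to 2.16.

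With the replicate number as a replicate block in limma the estimates are the same by construction, as with -0.45 for gga-miR-7, and 0 names passed either threshold. Deviations of same-numbered libraries from their group means had correlations of -0.80, -0.91 and 0.91. Those of CR replicate 2 and TB replicate 1 had 0.93. Since these libraries stood apart and carry different numbers, the correlations cannot show whether equal numbers were paired. The filter of 10 reads in all 6 libraries gives no value for hsa-miR-7-1-3p.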
